A study of Mus musculus with 27 samples.

Results

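*Adam2* and *Fetub* are 2 protein-coding genes of the mouse that were almost without reads in the ileum of vehicle-treated animals and had reads at high doses of TCDD (tetrachlorodibenzo-*p*-dioxin), a persistent contaminant. They were selected on exactly these values, out of 46078 genes with a row in the count tables, of which 30714 had a read in any animal. Their counts in the vehicle, 10 and 30 µg/kg groups are therefore a description of the choice, and no test of those contrasts is given for them. The rule names no dose for "high", and 10 and 30 µg/kg were taken as such here.

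RNA was sequenced from scrapings of the distal ileal epithelium of 27 male C57BL/6 mice at postnatal day 56. All had been gavaged every 4 days for 28 days, 3 mice (n = 3) with sesame oil vehicle and 3 with TCDD at each of 8 doses in µg/kg, which were 0.01 and 0.03, 0.1 and 0.3, 1 and 3, and finally 10 and 30. Mice are named by the number in their labels, and the labels do not give the cage of a mouse. Between 12.3 M and 17.1 M reads (M is 1000000) were assigned to genes in each mouse. Reads within 27 same-dose pairs of mice differed by more than sampling noise (chi-square per degree of freedom of 6.99 or more), so no library appeared more than once within a dose. Mouse 65 at 30 µg/kg stood furthest from its group, with 74.3 against mouse 67 and 45.5 against mouse 68. The next highest pair of any dose had 22.6 (mice 41 and 43). The library kit had 16 indexes. In the order of the mouse numbers, 16 mice (vehicle to 0.3 µg/kg and mouse 41 at 1 µg/kg) carried the first use of an index and the other 11 the second, so that index use cannot be told apart from dose except within 1 µg/kg.

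TCDD acts through the aryl hydrocarbon receptor (AhR), a ligand-activated transcription factor that enters the nucleus, pairs with ARNT and binds dioxin response elements, best known for turning on *Cyp1a1*, *Cyp1b1* and its own repressor *Ahrr*. *Adam2* encodes fertilin beta, a membrane protein of the ADAM (a disintegrin and metalloprotease) family that lacks protease activity and is known from the surface of sperm, where it pairs with other testis ADAM proteins. *Fetub* encodes fetuin-B, a plasma protein of the cystatin superfamily that is made by the liver and inhibits ovastacin (*Astl*), the egg protease that hardens the zona pellucida, so both genes are best known from fertilization and neither from the intestinal epithelium.

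On GRCm38, *Adam2* (ENSMUSG00000022039) lies on the minus strand at chr14:66027329-66077733, with 2 annotated transcripts and 21 merged exons of 2691 bases in all. *Fetub* (ENSMUSG00000022871) lies on the plus strand at chr16:22918334-22939778, with 7 transcripts and 10 merged exons of 1962 bases. No exon of another annotated gene overlapped either of them. In *Fetub*, 0 of 2101 stretches of 50 exonic bases occurred in exons of another gene, whereas in *Adam2* 46 of 2642 (1.74%) also occurred in *Timm23*, a subunit of the mitochondrial import channel, and its annotated copy *Gm10273*. Reads of *Timm23* numbered 184 to 220 in vehicle mice and 85 to 168 in those given 30 µg/kg, and *Gm10273* had 0 or 1 read in these mice.

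The RefSeq promoter windows (GRCm38.p6, 250 bases before to 50 after a start) were matched for 1 of the 2 genes, *Fetub*, and are shown because the AhR binds the element core GCGTG. Capitals mark that core, searched on both strands.

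Fetub, upstream start, chr16:22918132-22918431, plus strand: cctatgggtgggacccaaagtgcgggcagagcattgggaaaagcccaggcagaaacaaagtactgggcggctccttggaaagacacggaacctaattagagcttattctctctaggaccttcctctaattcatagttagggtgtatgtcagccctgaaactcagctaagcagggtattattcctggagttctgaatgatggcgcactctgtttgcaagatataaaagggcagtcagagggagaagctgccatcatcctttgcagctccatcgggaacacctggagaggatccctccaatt

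Fetub, downstream start, chr16:22919972-22920271, plus strand: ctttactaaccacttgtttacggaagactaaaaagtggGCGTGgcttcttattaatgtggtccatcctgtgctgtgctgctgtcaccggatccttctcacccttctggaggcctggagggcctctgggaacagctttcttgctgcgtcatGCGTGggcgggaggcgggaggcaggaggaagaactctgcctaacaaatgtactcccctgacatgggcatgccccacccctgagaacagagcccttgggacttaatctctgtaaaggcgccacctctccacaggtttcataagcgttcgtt

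The window of the upstream start held no match, and the window of the downstream start held 2, both on the plus strand, with their first bases 212 and 100 bases before that start. Of 32851 windows of all genes, 32.4% held at least 1 match and 11.1% at least 2, so that the letters alone are common. Reads were counted per gene, and which start they came from is not known from these values.

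*Adam2* had 0 reads in vehicle mice 2, 3 and 4, where a count of 0 allows up to 3 reads, or 0.0722 reads per M over the group. It also had 0 reads in each of the 6 mice at 0.01 and 0.03 µg/kg. Mice 26, 27 and 28 at 0.1 µg/kg had 4, 4 and 0 reads, and mice 33, 35 and 36 at 0.3 µg/kg had 0, 2 and 1. A few reads of this sperm gene were thus seen in some mice at 0.1 and 0.3 µg/kg, too few to rank these doses or to set a first dose. Mice 41, 43 and 44 at 1 µg/kg had 1, 0 and 5 reads, and mice 50, 51 and 52 at 3 µg/kg had 0, 5 and 11. At 10 µg/kg, mice 57, 58 and 59 had 13, 11 and 1 reads. At 30 µg/kg, mice 65, 67 and 68 had 7, 38 and 27 reads. The 30 µg/kg mice were above every mouse from vehicle to 1 µg/kg but overlapped those at 3 and 10 µg/kg, and mouse 59 was no higher than the low-dose mice.

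Summed over the 3 mice of a group, *Adam2* had 72 reads at 30 µg/kg against 0 in vehicle, at least 23.7-fold higher when the vehicle is set to a floor of 3 reads over the group, while the exact 95% counting interval of that ratio starts lower, at 18.8. At 10 µg/kg it had 25 reads, at least 8.37-fold higher by the same floor and with an interval from 6.31. In reads per M gene reads, with a 95% Poisson interval for counting error only, the level was 1.71 (1.34 to 2.15) at 30, 0.604 (0.391 to 0.891) at 10 and 0.370 (0.212 to 0.601) at 3 µg/kg. It was 0.190 (0.0822 to 0.375) at 0.1, 0.129 (0.0473 to 0.281) at 1 and 0.0628 (0.0130 to 0.184) at 0.3 µg/kg. In this order, only the 30 µg/kg group had an interval of its level that did not overlap that of its neighbour, with a ratio to 10 µg/kg of 2.83 (95% counting interval 1.77 to 4.65), and the mice of those groups still overlapped.

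**Figure D1:**
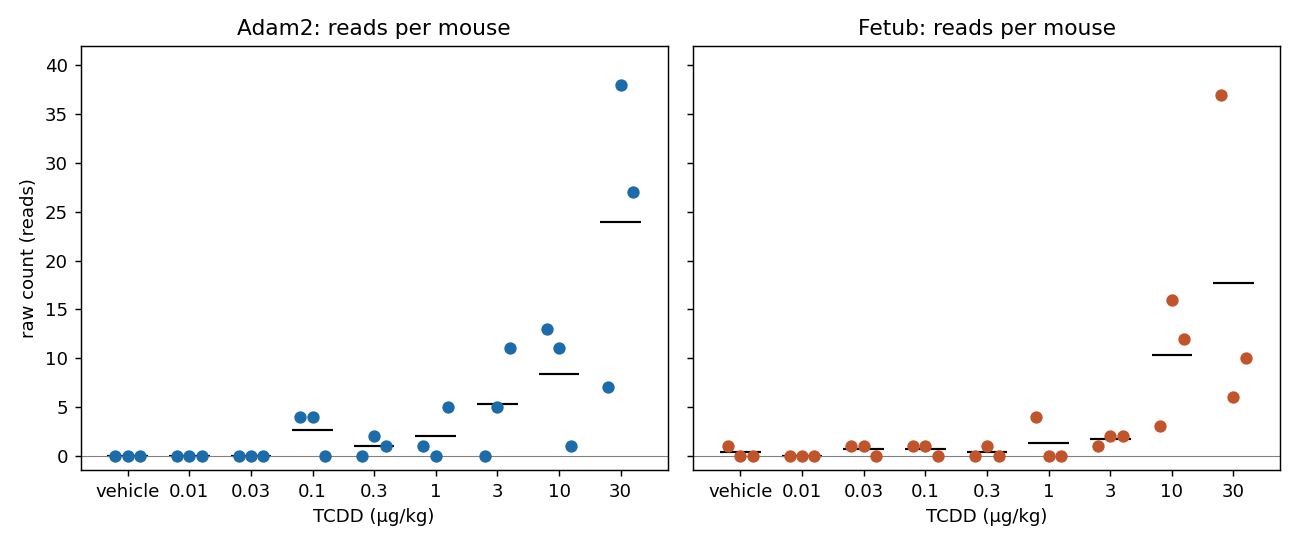
Raw read counts of *Adam2* (left) and *Fetub* (right) in each of 27 mice (points) by TCDD dose in µg/kg, with the mean of 3 mice as a line. No vehicle mouse is above 1 read, and the highest counts are 38 for *Adam2* and 37 for *Fetub*, both at 30 µg/kg but in different mice.

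*Fetub* had 1, 0 and 0 reads in vehicle mice 2, 3 and 4, and 0 reads in each mouse at 0.01 µg/kg. At 0.03 µg/kg, mice 17, 18 and 20 had 1, 1 and 0 reads, at 0.1 µg/kg mice 26, 27 and 28 had 1, 1 and 0, and at 0.3 µg/kg mice 33, 35 and 36 had 0, 1 and 0. Mouse 41 at 1 µg/kg had 4 reads and mice 43 and 44 had 0. Up to 1 µg/kg this liver gene was thus at or near single reads in every mouse but 1. Mice 50, 51 and 52 at 3 µg/kg had 1, 2 and 2 reads. At 10 µg/kg, mice 57, 58 and 59 had 3, 16 and 12 reads. At 30 µg/kg, mice 65, 67 and 68 had 37, 6 and 10 reads. All mice at 30 µg/kg were above all mice up to 3 µg/kg, but mice 67 and 68 lay within the range of the 10 µg/kg group.

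The summed *Fetub* count was 53 at 30 µg/kg and 31 at 10 µg/kg against 1 in vehicle, ratios of 52.2 (95% counting interval 8.98 to 2101) and 31.1 (5.19 to 1268) whose width comes from the single vehicle read. In reads per M gene reads the level was 1.26 (0.941 to 1.64) at 30, 0.748 (0.509 to 1.06) at 10, 0.116 (0.0375 to 0.270) at 3 and 0.0860 (0.0234 to 0.220) at 1 µg/kg, and 0.0514 or less below that. The intervals of the levels at 30 and 10 µg/kg overlapped, as did their mice, although the counting interval of their ratio lay above 1 (1.68, 1.06 to 2.71). The intervals at 3 and 1 µg/kg overlapped too, and in this order only those at 3 and 10 µg/kg did not. Mouse 65 gave 69.8% of the *Fetub* reads at 30 µg/kg, and without it the ratio to vehicle was 23.3 (3.62 to 977). For *Adam2*, the largest share at 30 µg/kg was 52.8%, from mouse 67, and without that mouse it was at least 17.1-fold higher by the floor, with an interval from 13.2.

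The 2 genes were not highest in the same mice. Mouse 65 was the lowest of its group for *Adam2* (7 reads, 95% Poisson interval 2.81 to 14.4) and the highest for *Fetub* (37, 26.1 to 51.0), and mouse 67 was the highest for *Adam2* (38, 26.9 to 52.2) and the lowest for *Fetub* (6, 2.20 to 13.1). The intervals of these mice did not overlap for either gene. At 10 µg/kg, mouse 57 likewise had the highest *Adam2* and the lowest *Fetub* count of its group, and mouse 59 had the lowest *Adam2* count with 12 *Fetub* reads. Per length, the mean level at 30 µg/kg was 0.698 ± 0.464 counts per M (CPM) per kilobase for *Adam2* and 0.667 ± 0.598 for *Fetub* (SD, n = 3), close to each other beside SDs of about the size of the means.

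The scrapings also differed in their level of smooth muscle RNA, which is given here because mouse 65 was 1 of the high ones. Summed over *Acta2*, *Myh11* and *Des*, the smooth muscle actin, myosin and desmin genes, mice 57, 58 and 59 had 206, 309.6 and 37.4 CPM, and mice 65, 67 and 68 had 288, 66.2 and 31.1 CPM. Vehicle mice had 21.1 to 87.0 CPM. The 2 mice with the most smooth muscle RNA, 58 and 65, also had the 2 highest *Fetub* counts, whereas mouse 57 had 3 *Fetub* reads and mouse 59, with little, had 12. Mice at 0.3 µg/kg reached 199.9 CPM of smooth muscle RNA with at most 1 *Fetub* read. Its part in the *Fetub* counts was not tested. In such bulk samples, fewer cells of a type and less RNA per cell cannot be told apart.

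**Figure D2:**
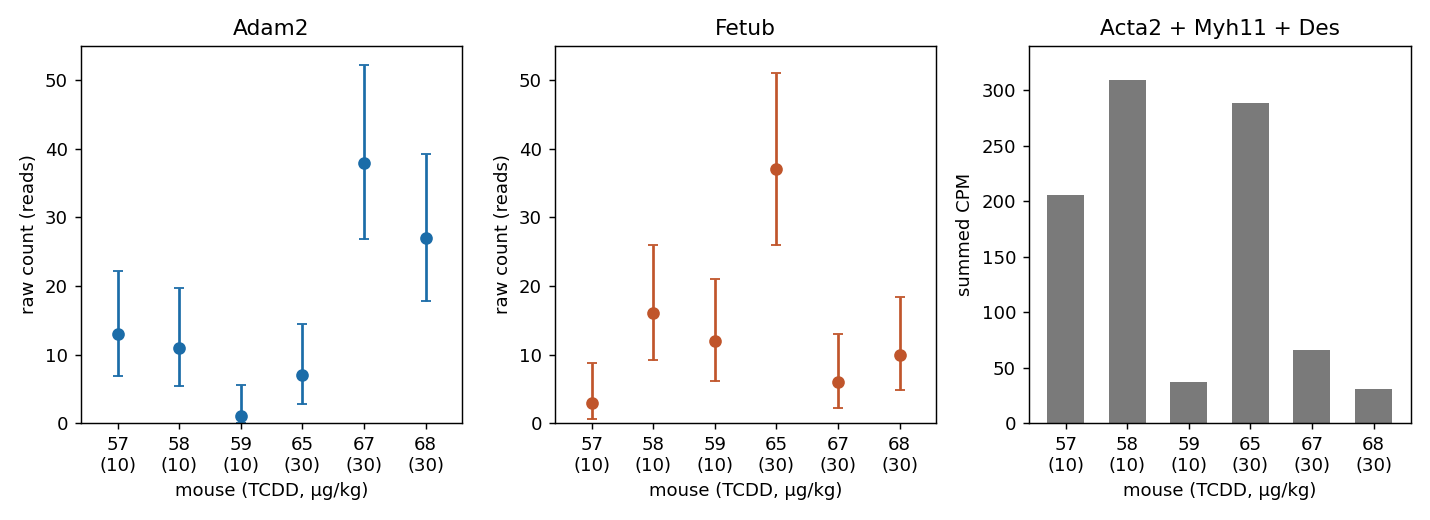
Raw counts of *Adam2* and *Fetub* with 95% Poisson intervals (left and middle) and the summed CPM of *Acta2*, *Myh11* and *Des* (right, bars) in the 6 mice at 10 and 30 µg/kg. *Adam2* peaks in mouse 67 with 38 reads and *Fetub* in mouse 65 with 37, and smooth muscle RNA is highest in mice 58 and 65.

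Doses of 1 and 3 µg/kg were not used in the choice of the genes and were compared with the 12 mice at 0.01 to 0.3 µg/kg, gene by gene, with a two-sided exact permutation test of the mean log2 CPM (prior count 2), whose smallest possible p is 0.00220 over 455 assignments of 3 among 15 mice. This scale compresses differences between counts of a few reads. Against the low-dose mice, 3 µg/kg was higher by 0.61 for *Fetub* (exact permutation p = 0.00440) and by 1.07 for *Adam2* (exact permutation p = 0.0440), unadjusted in 4 such tests. The mice at 3 µg/kg had 1, 2 and 2 *Fetub* reads, each under the floor of 3 reads in a mouse. The 12 low-dose mice had 5 together, with a ratio of summed counts of 3.90 (0.898 to 17.0). The *Fetub* p thus rests on 1 or 2 reads in a mouse. The *Adam2* difference rested on mice 51 and 52. It was 0.51 without mouse 52 (exact permutation p = 0.593) and 0.90 without mouse 51 (exact permutation p = 0.165). At 1 µg/kg the differences were 0.32 for *Adam2* and 0.21 for *Fetub*, with exact permutation p-values of 0.582 and 0.407. The mice at 3 µg/kg all carried a second use of their index and the low-dose mice a first, so dose and index use cannot be told apart here.

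Across all genes, the same doses were compared by edgeR's quasi-likelihood test, where a call needs both a 1.5-fold change and an adjusted p no higher than 0.05, which 134 of 16741 genes tested (0.8%) met at 3 µg/kg and 38 (0.227%) at 1 µg/kg. *Adam2* and *Fetub* had enough reads to enter this fit only because of the mice at 10 and 30 µg/kg. Neither entered when only the compared mice were fitted. The fit is thus no test of them, and its values are given as a description. At 3 µg/kg the log2 fold change was 3.54 ± 1.15 (SE) for *Adam2* and 2.05 ± 1.07 for *Fetub*, and at 1 µg/kg it was 2.06 ± 1.30 and 1.60 ± 1.07. Some of the low-dose groups held no read of them, so that these values depend on the prior count and are no bound. With the 12 low-dose mice fitted as 1 group, they were 2.37 ± 0.96 and 1.73 ± 1.01 at 3 µg/kg. Without a filter on low counts (30714 genes), edgeR gave at 3 µg/kg an adjusted p of 0.0450 for *Adam2* and 0.551 for *Fetub*. That fit also included the mice at 10 and 30 µg/kg, by which the genes were chosen. These p-values are therefore no evidence on 3 µg/kg in either direction.

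AhR target genes give the scale of the response in the same mice, and 5 of the 7 in the list had enough reads to test. At 30 µg/kg 4 of them were higher and none lower, and at 10 µg/kg 3 were higher, against 5.42% and 1.76% of all genes called higher in those comparisons. The median log2 fold change of the 5 was 4.90 at 30 and 3.93 at 10 µg/kg, beside 0.02 and -0.00315 over all genes. *Cyp1a1*, the classic xenobiotic-metabolizing AhR target, had 0 to 3 reads in vehicle mice, like *Fetub*, but 6587 to 8395 at 10 and 14821 to 27996 at 30 µg/kg. Its log2 fold change at 30 µg/kg was 13.74 ± 0.73 (SE, adjusted p = 9.16e-12, edgeR). The related *Cyp1b1* rose by 6.01 ± 0.32 on the log2 scale (adjusted p = 9.16e-12, edgeR) and *Ahrr*, which represses AhR signalling, by 4.90 ± 0.16 (adjusted p = 5.00e-16, edgeR). *Tiparp*, an AhR-induced ADP-ribosyltransferase, rose by 0.86 ± 0.15 (adjusted p = 4.73e-04, edgeR) at 30 µg/kg, and this call was lost with index use as a covariate (adjusted p = 0.257, edgeR). That term is estimated within 1 µg/kg alone, from mouse 41 against mice 43 and 44. A call lost under it, here and below, does not by itself show an effect of index use. *Nqo1*, a quinone reductase, changed by 0.07 ± 0.20 (adjusted p = 0.851, edgeR).

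The other 2 genes of that list were near zero like *Adam2* and *Fetub* and did not pass the filter. *Cyp1a2*, the liver-enriched relative of *Cyp1a1*, had 0 reads in vehicle mice, 1 to 3 at 10 and 2 to 12 at 30 µg/kg, and was called higher at 30 µg/kg by edgeR with no filter (adjusted p = 0.0122) and without mice 57, 58 and 65 (adjusted p = 0.0401). *Aldh3a1*, an aldehyde dehydrogenase, had 0 to 2 reads in vehicle and 0 to 3 at 30 µg/kg. *Cyp1a1* had reached 4.76 ± 1.49 CPM (1 µg/kg) and then 45.3 ± 27.3 CPM (3 µg/kg), against 0.116 ± 0.107 CPM in vehicle. At 30 µg/kg, on a per-length scale, *Cyp1a1* stood at 624 ± 223 CPM per kilobase (SD, n = 3), far above *Adam2* and *Fetub* at under 1.

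**Figure D3:**
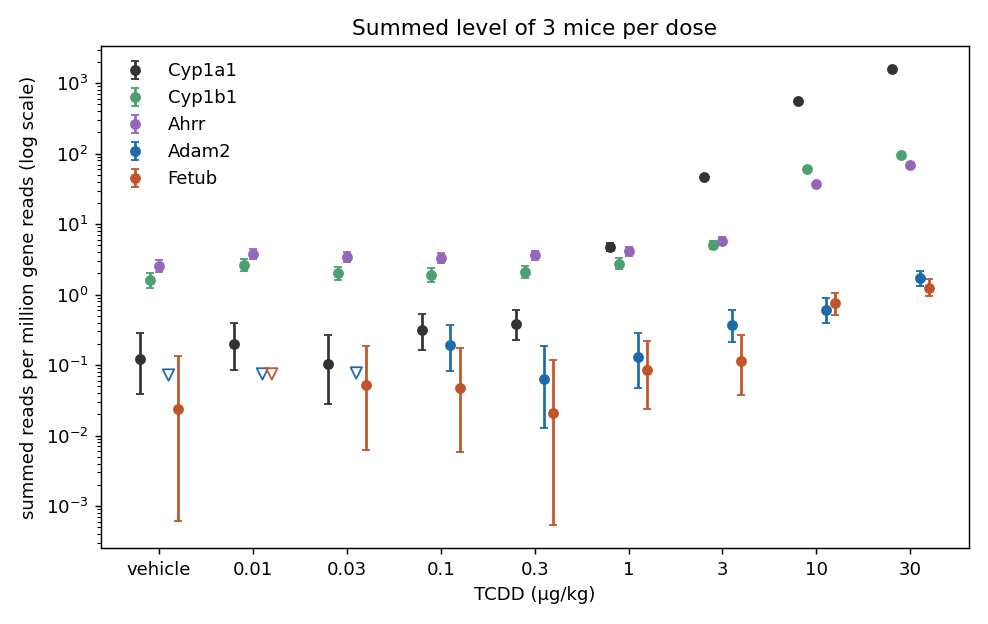
Summed reads per M gene reads (log axis) of the 3 mice at each TCDD dose for *Adam2*, *Fetub* and 3 AhR targets, with 95% Poisson intervals. Open triangles mark groups with 0 reads, drawn at the floor of 3 reads. *Cyp1a1*, *Cyp1b1* and *Ahrr* lie above *Adam2* and *Fetub* at 3 to 30 µg/kg.

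The genes whose levels went most like those of *Adam2* and *Fetub* were found over the 27 mice. Pearson's correlation of log2 CPM (prior count 2) was used, a description in which all points share the dose series. The vehicle and high-dose values by which *Adam2* and *Fetub* were chosen are among these points. Their likeness to any gene that rises at high doses was thus in part set by that choice. For *Fetub* the closest 5 of 16741 genes were *Cyp1b1* (r = 0.901), *Ahrr* (0.897), *Ugt1a7c*, a glucuronosyltransferase (0.878), *Esrrg*, an orphan nuclear receptor (0.876), and *Dgkh*, a diacylglycerol kinase (0.869). *Cyp1a1* was at place 14 (r = 0.830). For *Adam2* the closest were *Cry2*, a circadian repressor (r = 0.843), *Agpat3*, an acyltransferase of phospholipid synthesis (0.840), the lincRNA *1700081H04Rik* (0.838), *Mertk*, a receptor tyrosine kinase (0.834), and *Tbc1d8*, a TBC-domain gene (0.829). *Cyp1a1*, *Cyp1b1* and *Ahrr* were at places 25, 45 and 55 (r = 0.797, 0.784 and 0.776). *Fetub* was only at place 495 in the order of *Adam2* (r = 0.642), and *Adam2* at place 303 in that of *Fetub*.

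How many genes were near-silent in vehicle mice and appeared at 30 µg/kg depended on the limits set. Of 28236 genes with at most 10 reads summed over the vehicle mice, 12 had at least 10 reads in each 30 µg/kg mouse, and neither *Adam2* (7 reads in mouse 65) nor *Fetub* (6 in mouse 67) met that count. The leading 5 by mean CPM at 30 µg/kg were *Cyp1a1*, *Dlk1* (an imprinted Notch-like protein, 1.90 ± 0.92 CPM), *Cyp2c23* (an arachidonate epoxygenase, 1.70 ± 0.66 CPM), the antisense RNA *4930534D22Rik* (1.64 ± 0.46 CPM), which cannot be told apart from its sense partner where the strand setting of the counting is not known, and *Doc2b* (an exocytosis protein, 1.57 ± 0.41 CPM). With the limit at 5 reads per mouse, set after the counts were seen, 111 genes met it, with *Adam2* at place 5 (1.88 ± 1.25 CPM, SD, n = 3) and *Fetub* at place 10 (1.31 ± 1.17 CPM). *Adam2* stood between *Dlk1* and *Cyp2c23*. *Fetub* stood between the pseudogene *Gm20694* (1.33 ± 0.60 CPM) and *Mum1l1* (1.19 ± 0.41 CPM). *Adam2* and *Fetub* thus had the larger spread between mice of these neighbours in level.

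Few testis relatives of *Adam2* had enough reads to test. Of 20 ADAM genes best known from testis, 9 had 0 reads in all 27 mice and 3 were tested, of which 0 were called at 10 or 30 µg/kg by edgeR or DESeq2 (median log2 fold change 0.31 at 30 µg/kg), with 0 and 1 at an unadjusted p under 0.05. Beside 2.53% and 9.4% of all genes called at these doses, 0 of 3 is no result about them. *Adam1a*, fertilin alpha, the partner of fertilin beta, had 61 to 95 reads in vehicle mice already and 87 to 97 at 30 µg/kg (0.31 ± 0.19, adjusted p = 0.283, edgeR). *Adam3* and *Adam5*, sperm proteins that depend on or act beside *Adam2*, never had more than 2 and 4 reads in a mouse. Of 13 ADAM genes of somatic tissues, 12 were tested and 2 were higher at 30 µg/kg, beside 5.42% of all genes called higher (median of the 12, -0.20). They were *Adam22*, a neuronal ADAM without protease activity, with 11 to 13 reads in vehicle and 26 to 47 at 30 µg/kg (log2 fold change 1.65 ± 0.36, adjusted p = 0.00251, edgeR), and *Adam15* (0.61 ± 0.10, adjusted p = 1.84e-04, edgeR). *Adam15* was below the 1.5-fold limit when scaled by library size only (0.47), without the filter or without mouse 3, 67 or 68, and *Adam22* was not called with index use as a covariate (adjusted p = 0.106, edgeR). At 10 µg/kg *Adam22* was called higher (1.87 ± 0.35, adjusted p = 0.00290, edgeR), but not with index use as a covariate (adjusted p = 0.176, edgeR). *Adam12*, a metalloprotease ADAM, was called lower at 30 µg/kg without mouse 65 alone (-1.83, adjusted p = 0.0484, edgeR). Of 20 genes of sperm-egg recognition and *Adam2* maturation, 8 were tested and 1 was called, beside 9.4% of all genes, *Ace*, the angiotensin-converting enzyme, which enterocytes also make (1.01 ± 0.25 at 30 µg/kg, adjusted p = 0.00642, edgeR). *Ace* was not called in the fit of only the vehicle and 30 µg/kg mice (adjusted p = 0.0879, edgeR), with index use as a covariate (adjusted p = 0.0825, edgeR) or without mouse 67 (adjusted p = 0.0689, edgeR). At 10 µg/kg 0 of the 8 were called by edgeR or DESeq2, and 2 had an unadjusted p under 0.05.

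The genes related to *Fetub* also had few reads for the most part. *Ahsg*, fetuin-A, its neighbour and nearest relative, had at most 1 read in any mouse and 0 in every mouse at 10 and 30 µg/kg. Of 13 genes of the fetuin and kininogen cluster and the cystatins, 4 were tested and 0 called by edgeR at 10 or 30 µg/kg (median log2 fold change -0.32 at 30 µg/kg), where 2.53% and 9.4% of all genes were called, so that 0 of 4 is no result about them. DESeq2 also called 0, and 1 of the 4 had an unadjusted p under 0.05 at 30 µg/kg and 0 at 10 µg/kg. *Astl*, ovastacin, the protease that fetuin-B inhibits, had 0 to 1 reads in vehicle and at 30 µg/kg and at most 6 in any mouse. Of 6 astacin proteases 4 were tested and 0 called at 10 or 30 µg/kg by edgeR or DESeq2, with 0 and 1 at an unadjusted p under 0.05, again too few to read against those shares. That 1 was *Bmp1*, a procollagen C-proteinase, which was called higher at 30 µg/kg by edgeR with no filter (adjusted p = 0.0159), without mouse 65 (adjusted p = 0.00122) and without mice 57, 58 and 65 (adjusted p = 5.36e-04). The meprins *Mep1a* and *Mep1b*, astacins of the enterocyte brush border, were abundant throughout, in vehicle mice at 1068 ± 94 and 1353 ± 89 CPM, and after 30 µg/kg at 1241 ± 425 and 1292 ± 260 CPM (SD, n = 3).

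Markers of liver and germ cells were checked beside these levels. The hepatocyte list of 20 secretory genes summed to 40.2 to 58.6 CPM in vehicle mice, and to 54.9 to 85.3 CPM in the 30 µg/kg group. Of its 20 genes, 17 had a read in at least 1 mouse and 3 had 0 in all mice. *Alb* had no more than 4 reads in any mouse and *Fgg* had 0, both picked after their values were seen. The sum thus came from other genes of the list. The 7 tested had a median log2 fold change of 0.89 at 30 µg/kg, beside 0.02 over all genes. That median was -0.05 without mice 57, 58 and 65. Of the 7 tested, 2 were higher at 30 µg/kg, beside 5.42% of all genes, *Serpina1b*, an alpha-1 antitrypsin gene (1.52 ± 0.22, adjusted p = 5.38e-05, edgeR), and *Ttr*, transthyretin (1.40 ± 0.37, adjusted p = 0.0103, edgeR). *Ttr* lost its call in the fit of only the vehicle and 30 µg/kg mice (adjusted p = 0.0529, edgeR), with index use as a covariate or without vehicle mouse 4. *Serpina1b* was the only one of them called higher at 10 µg/kg (0.81 ± 0.22, adjusted p = 0.0376, edgeR), beside 1.76% of all genes. That call did not hold with index use as a covariate (adjusted p = 0.345, edgeR), when scaled by library size only, without mouse 2, 4, 58 or 59, or without mice 57, 58 and 65. The 18 germ cell markers summed to 0.586 to 2.04 CPM in vehicle mice, and to 0.572 to 1.70 CPM in the 30 µg/kg group, with 5 of them at 0 in all mice, *Prm1* and *Prm2* at no more than 1 and 3 reads in any mouse, and the 1 tested not called by edgeR or DESeq2.

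The label of ileal epithelium fitted its markers. The ileal bile acid binding protein gene *Fabp6* had 5828 to 29698 reads in every mouse, and all 12 enterocyte markers were tested, of which 3 were called at 30 µg/kg, beside 9.4% of all genes, and 0 at 10 µg/kg by edgeR, where 1 had an unadjusted p under 0.05. At 30 µg/kg *Slc10a2*, the ileal bile acid transporter (0.75 ± 0.24, adjusted p = 0.0340, edgeR), and *Cubn*, cubilin (1.01 ± 0.23, adjusted p = 0.00448, edgeR), were higher, and *Fabp6* fell by 0.94 ± 0.25 on the log2 scale (adjusted p = 0.0120, edgeR). Of 15 markers of other cell types, all tested, 3 were called at 30 µg/kg beside the same share. At 10 µg/kg 1 was called beside 2.53%, and 8 had an unadjusted p under 0.05 (edgeR). Of those 8, 6 were higher, among them the smooth muscle genes *Acta2*, *Myh11* and *Des*. At 30 µg/kg 6 of the 15 had such a p, 3 of them higher. *Jchain* of plasma cells fell by 1.61 ± 0.34 (adjusted p = 0.00195, edgeR), *Lgr5* of crypt stem cells fell by 1.59 ± 0.37 (adjusted p = 0.00473, edgeR) and *Chga* of enteroendocrine cells rose by 1.10 ± 0.23 (adjusted p = 0.00236, edgeR) at 30 µg/kg. *Jchain* was also lower at 10 µg/kg (-1.22 ± 0.33, adjusted p = 0.0375, edgeR), but not without mice 57, 58 and 65 (adjusted p = 0.110, edgeR), without any 1 of mice 2, 3, 4, 57 and 59, or with index use as a covariate. With index use as a covariate, a term estimated within 1 µg/kg alone, none of the 6 genes called at 30 µg/kg kept its call there. The 3 enterocyte genes also lost their calls in the fit of only the vehicle and 30 µg/kg mice. *Fabp6* also lost its call without mouse 67 or 68. *Slc10a2* lost its call when scaled by library size only or without mouse 2, 3, 4, 67 or 68. The fibroblast gene *Col1a1* was called lower at 30 µg/kg by edgeR without mouse 65 (adjusted p = 0.00441) and with no filter (adjusted p = 0.0330). *Des* was called higher at 10 µg/kg by edgeR with no filter (adjusted p = 0.0352). *Slc51b*, a bile acid exporter, was called lower at 30 µg/kg with index use as a covariate (-0.93, adjusted p = 0.0121, edgeR). The endothelial gene *Pecam1* was called higher there without mouse 2 (0.67, adjusted p = 0.0442, edgeR). Without mice 57, 58 and 65, mouse 59 alone stood for 10 µg/kg. *Cubn* and *Slc51a* were then 0.83 and 0.59 higher on the log2 scale, beside 0.40 and 0.43 in the main fit. The part of cell composition in the *Adam2* and *Fetub* counts was not tested.

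Around *Adam2* on chromosome 14, 11 of the 20 nearest annotated genes (10 on each side) were tested, and 2 were called at 30 µg/kg, beside 9.4% of all genes. The nearest tested gene at higher coordinates, *Ephx2*, a soluble epoxide hydrolase, was 3.31-fold higher at 30 µg/kg (log2 fold change 1.73 ± 0.32, adjusted p = 7.75e-04, edgeR). Its reads in mice 65, 67 and 68 were 889, 2841 and 1999, the same order of mice as for *Adam2*, and 564 to 763 in vehicle. *Cubn*, which is not among these neighbours, had that order too (32140, 65162 and 54131 reads). Over the 27 mice *Ephx2* was at place 98 in likeness to *Adam2* (r = 0.754), a value looked up after that order was seen. *Pbk*, a mitotic kinase, fell by 1.08 ± 0.28 (adjusted p = 0.0106, edgeR). *Clu*, clusterin, the nearest tested gene at lower coordinates, was at 24.7 ± 17.0 CPM in vehicle and 25.2 ± 5.6 CPM (SD, n = 3) at 30 µg/kg, and *Gulo*, between *Clu* and *Adam2*, had at most 3 reads in any mouse. *Nuggc*, a nuclear GTPase of germinal centres, was not called at 30 µg/kg (-1.49 ± 0.56, adjusted p = 0.0676, edgeR) but was called lower by DESeq2 (adjusted p = 0.0388) and by edgeR when scaled by library size only, with no filter or without mouse 4. None of the 11 was called at 10 µg/kg by edgeR, where 0 had an unadjusted p under 0.05, and *Pbk* was not called at 30 µg/kg with index use as a covariate (adjusted p = 0.737, edgeR), in the fit of only the vehicle and 30 µg/kg mice (adjusted p = 0.101, edgeR) or without mouse 4 or 67. *Ephx2* was called under every alternative run.

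Around *Fetub* on chromosome 16, only 4 of 20 neighbours were tested, and 1 was called, beside 9.4% of all genes at 30 and 2.53% at 10 µg/kg. It was *Dgkg*, a diacylglycerol kinase, higher at 10 µg/kg (2.82-fold, adjusted p = 0.00125, edgeR) and at 30 µg/kg (2.64-fold, adjusted p = 7.38e-04, edgeR). It is last of the 10 genes at lower coordinates only by its lowest coordinate, and its start site lies 261 kilobases from that of *Fetub*. That call was not made with index use as a covariate at 30 µg/kg (adjusted p = 0.0504, edgeR) or at 10 µg/kg (adjusted p = 0.113, edgeR), nor at 30 µg/kg in the fit of only the mice compared (adjusted p = 0.0538, edgeR). The liver genes beside it, *Ahsg*, *Hrg*, *Kng2* and *Kng1*, encoding fetuin-A, histidine-rich glycoprotein and kininogens, had between 0 and 2 reads in each vehicle, 10 and 30 µg/kg mouse. The nearest tested genes, the chaperone *Dnajb11* (log2 fold change -0.22 ± 0.10, adjusted p = 0.124, edgeR) and the helicase *Eif4a2* (-0.04 ± 0.07, adjusted p = 0.765, edgeR), were not called at 30 µg/kg.

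**Figure D4:**
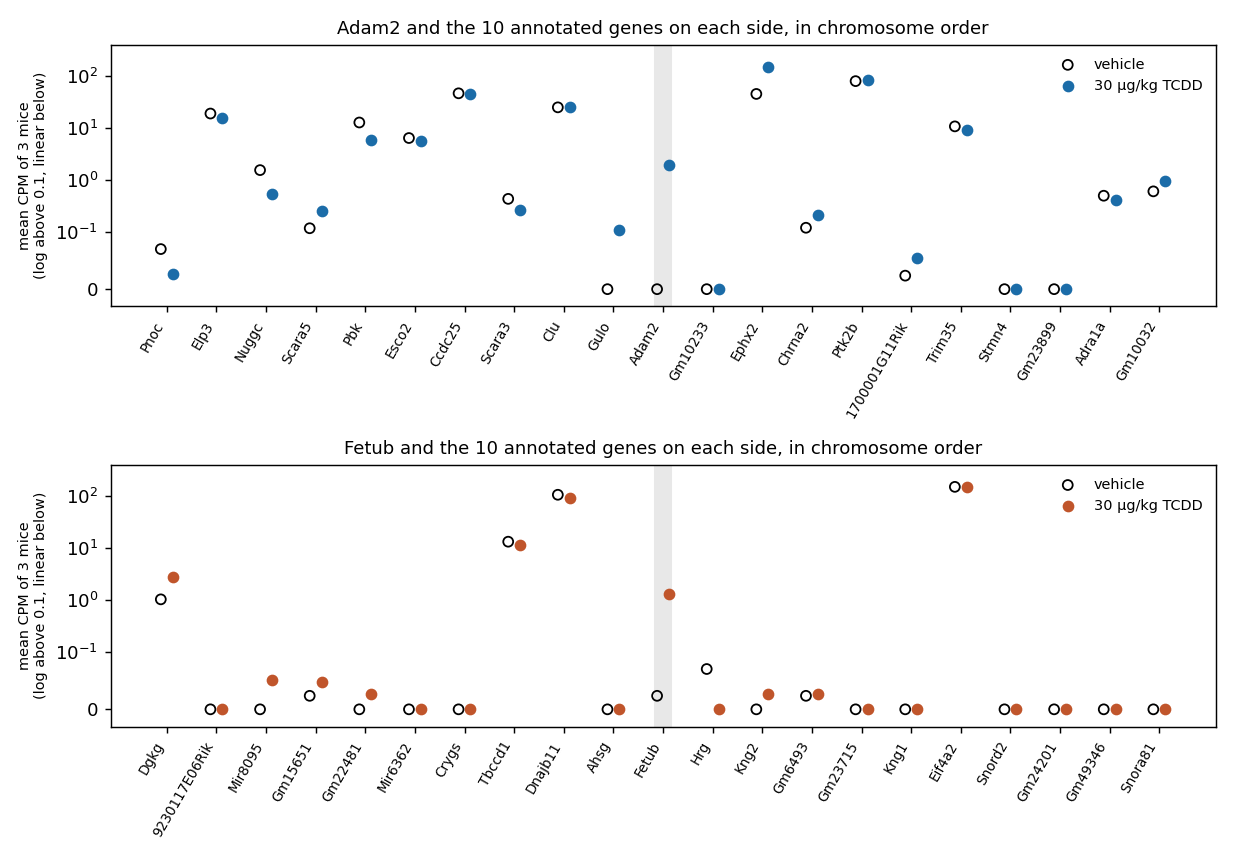
Mean CPM of 3 vehicle mice (open) and 3 mice at 30 µg/kg (filled) for *Adam2* (top) and *Fetub* (bottom) and the 10 annotated genes on each side in chromosome order (log axis above 0.1, linear below). *Ephx2* stands out beside *Adam2*. Most genes around *Fetub* are near 0, but *Dnajb11*, *Tbccd1* and *Eif4a2* lie far above it in both groups.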

How the data were processed

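The deposited files hold raw counts of reads per Ensembl gene for each of 27 mice. Per the submitters' processing notes, the authors used FastQC 0.11.3, Trimmomatic 0.33, TopHat2 2.1.0 on GRCm38, SAMtools 1.2.0 and HTSeq 0.6.1, whose strand setting is not given in the sources used here. Rows without a gene took 44.5 to 49.5% (no feature) and 0.607 to 1.02% (ambiguous) of uniquely aligned reads and were left out. The members and all gene lists were chosen with earlier results of these data known. Counts of all mice were fitted in 9 groups with edgeR 4.0.16 (R 4.3.3, TMM, filterByExpr, 16741 genes, Benjamini-Hochberg over all of them). The SE is the log2 fold change divided by the root of the test's F. CPM are per 1000000 of the TMM-scaled gene reads, and a floor of 3 reads was 0.175 to 0.245 CPM in single mice. Intervals are exact at 95% and cover counting error only. The mice are separate animals. Of 46078 gene rows, 45229 matched the GENCODE annotation. The named genes were *Adam2*, *Fetub*, the 5 genes most like each, the AhR list in full, called members of the other lists, *Ahsg* and *Astl*, the nearest tested and any called neighbour, and the near-silent genes leading or next to *Adam2* and *Fetub*. *Adam1a*, *Adam3*, *Adam5*, *Bmp1*, *Gm10273*, *Gulo*, *Hrg*, *Kng1*, *Kng2*, *Mep1a*, *Mep1b*, *Adam12*, *Alb*, *Col1a1*, *Fgg*, *Nuggc*, *Pecam1*, *Prm1*, *Prm2*, *Slc51a*, *Slc51b* and *Timm23* were added after their values were seen. Alternatives were DESeq2 1.42.0, other scalings, no filter, a term for index use, fits of fewer mice and each mouse left out. The fit was tested on simulated data.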

Additional observations from a re-analysis of the deposited data

How the results depend on the processing

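In edgeR's fit across all genes, *Adam2* and *Fetub* passed the filter through the mice at 10 and 30 µg/kg. They did not pass it in the fits of only the mice compared. The fit without a filter also included the 10 and 30 µg/kg mice, by which the genes were chosen. An adjusted p on either side of the limit thus says nothing of them at 1 and 3 µg/kg. For *Adam2* at 3 µg/kg it was 0.167 (0.123 to 0.888 over the alternatives with a filter) and 0.0450 without one (log2 fold change 3.54, edgeR). DESeq2 gave it no adjusted p. Leaving out single mice moved *Fetub* at 1 µg/kg from -1.78 (without mouse 41, the only one with reads) to 2.15. In the exact permutation tests, *Adam2* at 3 µg/kg was 1.77 higher with a prior count of 0.5 (p = 0.0571), lost its call in 10 of 15 omissions of a mouse, which ranged from 0.51 to 1.80, and *Adam2* and *Fetub* at 1 µg/kg ranged from -0.15 to 0.68 and from -0.25 to 0.44. *Fetub* at 3 µg/kg kept an exact permutation p of 0.0220 or less in all 15, on 1 or 2 reads in each mouse of that dose. The numbers of genes called at 1, 3, 10 and 30 µg/kg were 7, 1, 48 and 482 with index use as a covariate, where the index term is estimated within 1 µg/kg alone. Without the filter 86 and 216 genes were called at 1 and 3 µg/kg, DESeq2 called 58 at 1 µg/kg, and fitting only the mice compared called 667 at 30 µg/kg. Omitting single mice gave 25 to 72, 50 to 175, 208 to 450 and 878 to 2508 genes at 1, 3, 10 and 30 µg/kg. The count moved by over 1.5 times without mouse 14 (72) or 43 (25) at 1 µg/kg, 51 (67) or 52 (50) at 3 µg/kg, and 2 (226), 4 (217) or 59 (208) at 10 µg/kg. At 30 µg/kg it did so without mouse 4 (993), 67 (878) or 65 (2508), and without mice 57, 58 and 65, left out after the data were seen, it was 2515. The cause was not tested. Library size alone shifted the median of all genes at 30 µg/kg from 0.02 to -0.11 and turned 908 higher and 666 lower genes into 604 and 1048, and 102 and 32 into 80 and 44 at 3 µg/kg. The 12 near-silent genes became 2 with at most 3 vehicle reads, 1 with at least 20 reads per mouse, 4 at 10 µg/kg and 111 with at least 5 reads. Depth limits *Adam2* and *Fetub*, since 1 to 5 reads in a mouse cannot be ranked.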

Other observations

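Of 20853 genes with 0 reads in all vehicle mice, 3 had at least 5 reads in each 30 µg/kg mouse, *Adam2*, the lincRNA *1500035N22Rik* and *Best2*, and the last of them were looked at after their values were seen. *Best2*, a bestrophin anion channel, had 5, 6 and 10 reads in the mice at 30 µg/kg and 0, 2 and 5 at 10 µg/kg. In the 21 mice from vehicle to 3 µg/kg it had a single read, at 1 µg/kg, so that it had fewer low-dose reads than *Adam2*, with 33 over the same mice. *1500035N22Rik* had 10, 10 and 16 reads at 30 µg/kg and already 7 reads in the 3 mice at 0.01 µg/kg, a dose at which *Adam2* and *Best2* had 0. No test was made of these genes.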
